A study of Mus musculus with 15 samples.

Results

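Matrix metalloproteinases and their tissue inhibitors were followed in bulk RNA sequencing of mouse liver as 10 genes, the proteases Mmp2, Mmp7, Mmp12, Mmp13, Mmp14, Mmp15 and Mmp19 and the inhibitors Timp1, Timp2 and Timp3. They were taken from the deposited tables by exact match of the gene symbol, and they are 10 of the 26839 genes listed in those tables. All livers came from male C57BL/6J mice that had received an adeno-associated virus of serotype 8 (AAV8), and there were 5 groups of 3 libraries. For 16 weeks 4 groups had sugar water and the FPC diet, a model of non-alcoholic steatohepatitis (NASH). Of these, 1 group carried Activin A and another green fluorescent protein (GFP), both under the liver-specific thyroxine binding globulin (TBG) promoter. A further group carried a short hairpin RNA against Gpnmb and the last of the 4 a scrambled hairpin, both under the H1 promoter. The fifth group carried the GFP vector and had eaten standard chow with normal water for 16 weeks. Every group, the chow group included, therefore carried a virus, and no chow group carried Activin A or a hairpin. The series asked how the diet, Activin A and the Gpnmb hairpin alter liver transcripts.

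Matrix metalloproteinases are zinc-dependent enzymes that cut collagens, elastin and other proteins of the extracellular matrix. They are made as inactive precursors, and most are secreted while a few stay anchored in the cell membrane. Tissue inhibitors of metalloproteinases bind the active site of these enzymes, so the balance of both families bears on how fast a scar is built or removed. In injured rodent liver, macrophages are known sources of Mmp12 and Mmp13, and stellate cells and myofibroblasts are known sources of Mmp2 and Timp1.

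Libraries held 15276879 to 23467867 counts. Levels are given as CPM, counts per 1000000 counts of a library scaled by the trimmed mean of M values (TMM). Gpnmb, the gene targeted by the hairpin, stood at 1.47, 1.27 and 3.32 CPM in the hairpin livers, against 25.9, 35.8 and 32.4 CPM in the scramble livers. Inhba, which encodes the Activin A subunit, stood at 25.7, 23.9 and 25.2 CPM in the Activin A livers, against 8.12, 7.92 and 8.12 CPM in the NASH GFP livers. No source used here states whether transgene reads were counted as Inhba. Nothing in the labels says whether the 3 libraries of a group were separate animals, so the p-values cover only the spread among the libraries of a group, part of which may be technical. In bulk liver, fewer cells of a type and less RNA per cell cannot be told apart.

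Before the values, the sequence before 1 listed start is shown for each of the 3 secreted proteases with the largest diet responses, Mmp7, Mmp12 and Mmp13. They are shown because they lie in 1 cluster on chromosome 9 and each has the same short word near a transcription start. RefSeq (build GRCm38.p6) listed promoters for 8 of the 10 members, 10 promoters in all, with 2 starts each for Mmp7 and Mmp12. Each promoter was searched over 250 bases before the start, on both strands, for TGAGTCA, the letters bound by AP-1 (dimers of Fos and Jun proteins). The capitals mark those letters, and TGACTCA is the same word on the other strand. The first is Mmp7 at its first listed start (chr9:7691840-7692089, plus strand). The second is Mmp12 at its second listed start (chr9:7347124-7347373, plus strand), which lies inside the gene as counted (7344381 to 7369499). The third is Mmp13 (chr9:7272264-7272513, plus strand). Which start these livers used was not tested.
Mmp7 promoter: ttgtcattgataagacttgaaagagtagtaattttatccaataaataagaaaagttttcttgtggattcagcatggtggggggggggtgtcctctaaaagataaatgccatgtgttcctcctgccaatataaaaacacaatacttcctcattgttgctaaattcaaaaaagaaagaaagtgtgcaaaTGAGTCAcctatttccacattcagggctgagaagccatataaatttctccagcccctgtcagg
Mmp12 promoter: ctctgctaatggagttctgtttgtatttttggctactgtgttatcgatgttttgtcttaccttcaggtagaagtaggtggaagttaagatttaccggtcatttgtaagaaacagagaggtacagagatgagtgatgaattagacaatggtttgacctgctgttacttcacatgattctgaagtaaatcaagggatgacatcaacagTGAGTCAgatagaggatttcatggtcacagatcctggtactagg
Mmp13 promoter: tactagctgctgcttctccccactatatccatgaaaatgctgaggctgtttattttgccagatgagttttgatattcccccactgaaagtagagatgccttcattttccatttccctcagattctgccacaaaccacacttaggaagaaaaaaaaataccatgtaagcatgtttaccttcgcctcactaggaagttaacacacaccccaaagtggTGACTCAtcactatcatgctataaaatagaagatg

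The word began 63 bases before the start in Mmp7, 44 bases before it in Mmp12 and 35 bases before it in Mmp13. It was found in 3 of the 10 member promoters and in 4.46% of the 32851 promoters of the table. Counted by gene, 3 of the 8 listed members held it, and 5.16% of 27025 genes did. The members were chosen with earlier results known and the promoters shown were picked for the word, so these shares are a description and were not tested. These letters were not in the windows of the other starts of Mmp7 and Mmp12, nor in those of Mmp14, Mmp15, Timp1, Timp2 and Timp3. The TATA word TATAAA, searched in the same way, lay nearest to the start at 26 bases before it in Mmp7 and 16 bases before it in Mmp13, and 12.4% of all promoters held it. A match describes letters and is not a measured binding site.

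Across the 5 groups the members fell into genes that were nearly absent in chow livers and genes that were present in every library. Per kilobase of gene length, which allows genes to be compared, Mmp19 was the highest protease in chow GFP livers at 20.1 CPM per kb, ahead of Mmp15 at 10.9 and Mmp14 at 5.64 CPM per kb. Timp2 was the highest inhibitor there, at 3.77 CPM per kb. Mmp7 and Mmp12 stood at 0.0190 and 0.0192 CPM per kb in those livers, and Mmp13 at 0.0493 CPM per kb. The plot of levels by library shows that both the NASH GFP and the scramble livers lay above the chow livers for all members but Mmp15 and Mmp19.

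**Figure D1:**
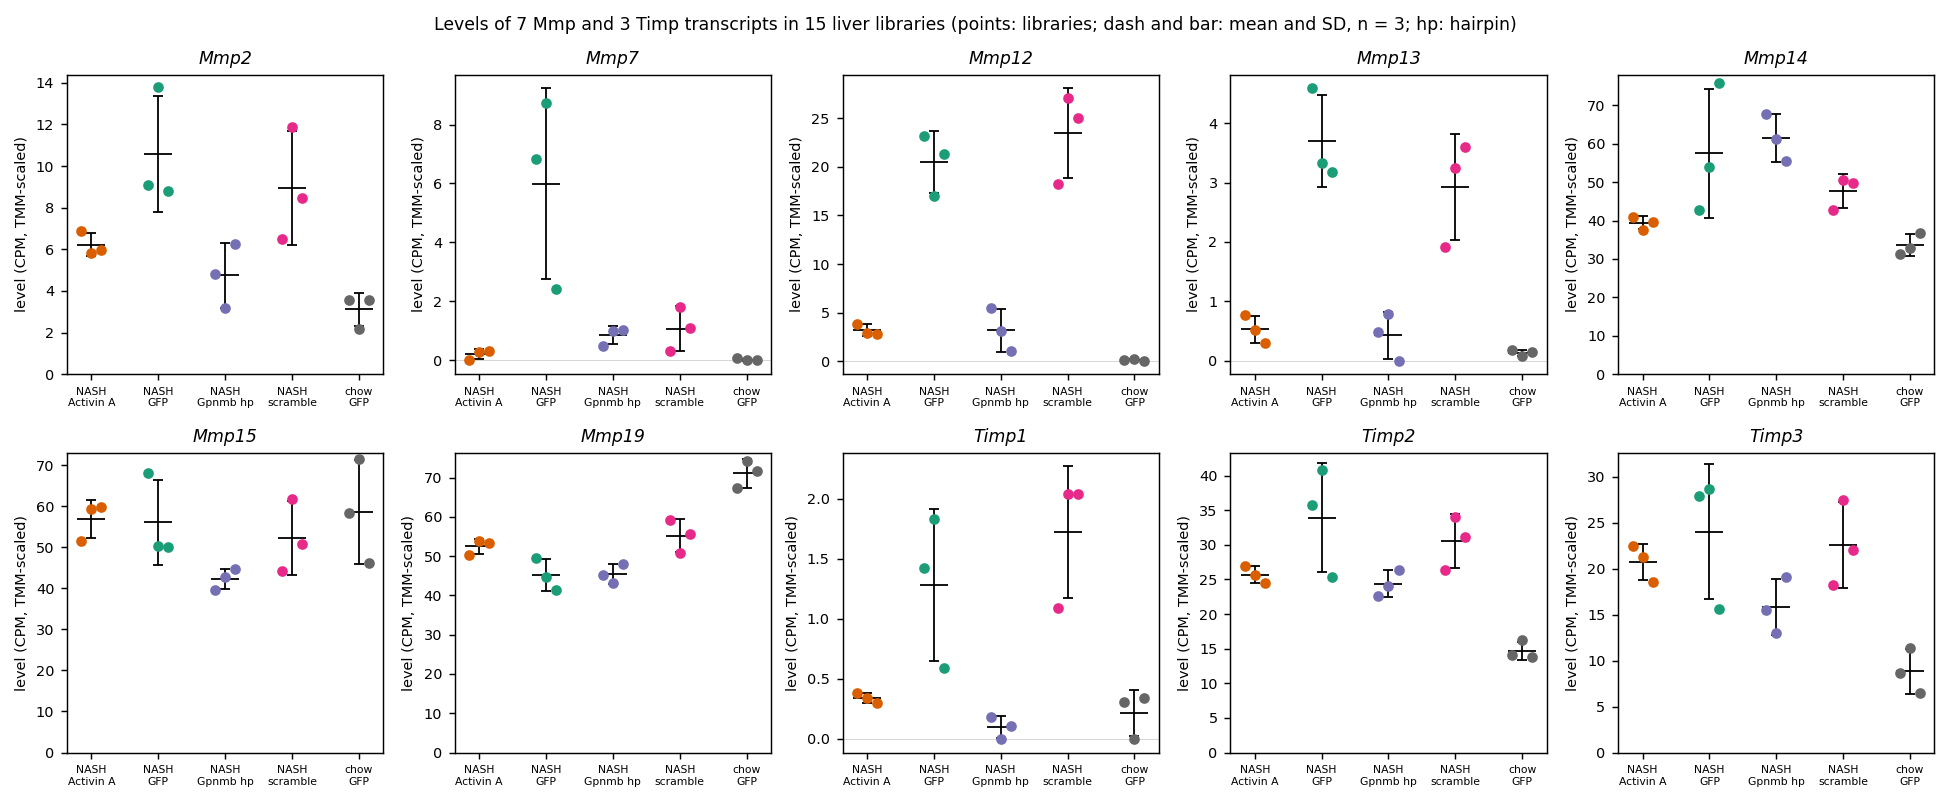
Level of each member (CPM, TMM-scaled, linear axes) in the 15 libraries by group, with the mean and SD of 3 libraries. Mmp12 lies at 17.0 CPM or above in the NASH GFP and scramble livers and at 5.45 CPM or below in all other livers, while Mmp19 is highest in chow livers.

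The diet comparison set NASH GFP livers against chow GFP livers. In it, 8 members rose and 1 fell in the edgeR quasi-likelihood test at a Benjamini-Hochberg adjusted p under 0.05, where 17.0% of the 14388 genes tested were called, 11.2% higher and 5.82% lower. The genes that rose were Mmp7, with a single read in chow livers, and, in falling order of log2 fold change from 7.20 for Mmp12 to 0.81 for Mmp14, Mmp12, Mmp13, Timp1, Mmp2, Timp3, Timp2 and Mmp14. Mmp19 fell, and Mmp15 did not pass the test. The median log2 fold change of the 10 members was 1.63, against -0.01 over all genes tested. For 9 of the 10 members no NASH GFP library fell within the range of the chow libraries or the reverse, as was so for 35.4% of all genes tested.

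The Activin A comparison set Activin A livers against GFP livers, both on the NASH diet. Here 3 members fell, Mmp7, Mmp12 and Mmp13, and none rose, where 5.52% of the 14598 genes tested were called, 1.66% higher and 3.86% lower. Of the other 7 members, 3 more lay below the GFP livers in every library (Mmp2, Mmp14 and Timp1) but did not pass the test. The median log2 fold change of the members was -0.66, against 0.00 over all genes tested. Libraries were fully separated for 7 members, 6 lower and 1 (Mmp19) higher, as they were for 25.9% of all genes tested.

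The hairpin comparison set Gpnmb hairpin livers against scramble livers, both on the NASH diet. In it, 6 members fell, namely Timp1, Mmp12, Mmp13, Mmp2, Timp3 and Mmp19, and Mmp14 rose, where 24.3% of the 14845 genes tested were called, 1813 higher and 1788 lower. Mmp7, Mmp15 and Timp2 did not pass the test. The median log2 fold change of the members was -0.43, against 0.00 over all genes tested. Libraries were fully separated for 6 members, 5 lower and 1 higher, as they were for 41.0% of all genes tested. The plot of fold changes sets the 3 comparisons side by side, and it shows Mmp12 and Mmp13 as the members that were called higher on the diet and lower under both vectors.

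**Figure D2:**
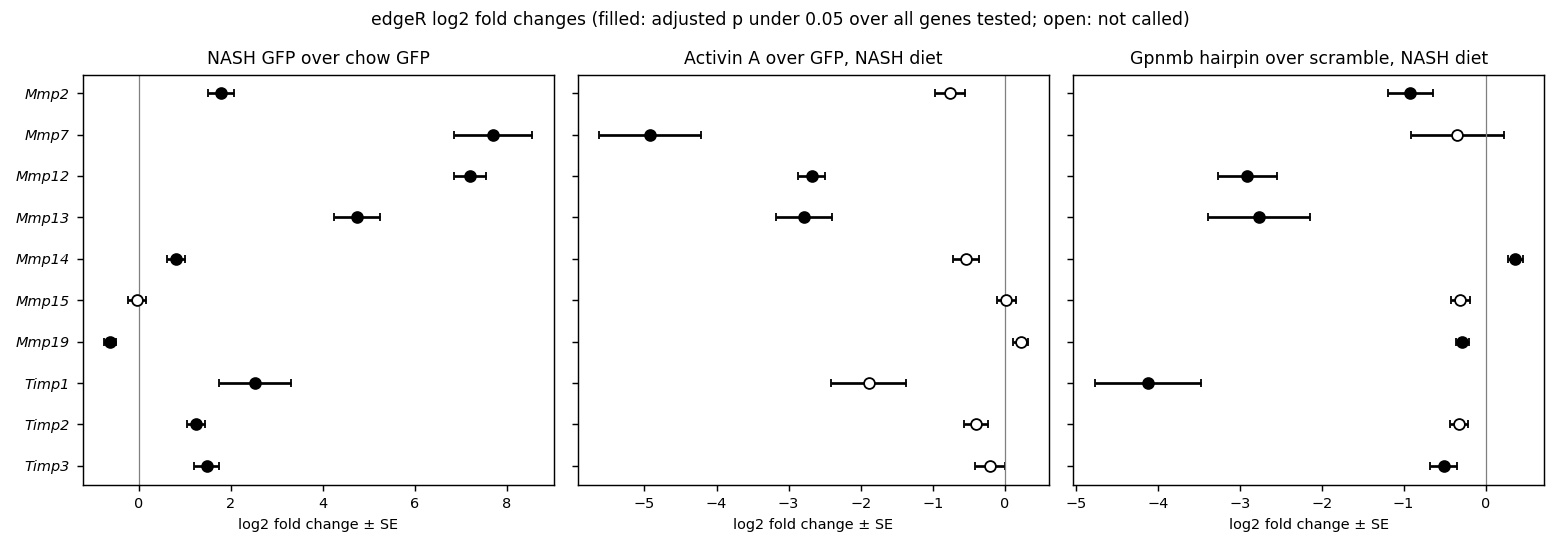
edgeR log2 fold change of each member with its standard error (SE), for NASH GFP over chow GFP, Activin A over GFP on the NASH diet, and Gpnmb hairpin over scramble on the NASH diet. Filled points passed an adjusted p under 0.05 over all genes tested, and Mmp12 lies at 7.20, -2.68 and -2.91 in the 3 panels.

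Among the secreted proteases, Mmp12 (macrophage elastase, which digests elastin; ENSMUSG00000049723, GRCm38 chromosome 9, 7344381 to 7369499) gave the clearest separation. It stood at 3.88, 2.86 and 2.84 CPM in Activin A livers, against 23.2, 17.0 and 21.4 CPM in NASH GFP livers. It stood at 5.45, 3.06 and 1.03 CPM in Gpnmb hairpin livers, against 18.3, 27.1 and 25.0 CPM in scramble livers. In chow GFP livers it had 0.122, 0.227 and 0.0689 CPM. All 6 livers of the NASH control vectors thus lay above the 6 livers with Activin A or the hairpin, and these lay above all chow livers. In edgeR the diet gave a log2 fold change of 7.20 ± 0.34 (SE, adjusted p = 6.02e-06), Activin A gave -2.68 ± 0.19 (0.000192) and the hairpin gave -2.91 ± 0.36 (0.000408). As a ratio of mean CPM, Mmp12 was 148-fold higher in NASH GFP than in chow GFP livers, and 23.0-fold higher in Activin A livers and 22.9-fold higher in hairpin livers than in chow livers. The last 2 differences were called as well, at log2 fold changes of 4.49 ± 0.49 (edgeR adjusted p = 0.000167) and 4.47 ± 0.75 (0.00244). The gene overlaps Mmp1b on the opposite strand, and no source used here states whether the counting used strand.

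Mmp13 (the interstitial collagenase of rodents; ENSMUSG00000050578, chromosome 9, 7272514 to 7283331) had few counts and moved in the same directions. It stood at 0.765, 0.514 and 0.302 CPM in Activin A livers, against 4.59, 3.33 and 3.17 CPM in NASH GFP livers. It stood at 0.490, 0.791 and 0 CPM in hairpin livers, against 1.92, 3.25 and 3.61 CPM in scramble livers. In chow GFP livers there were 0.182, 0.0755 and 0.138 CPM, which is 6 counts over the 3 libraries. The groups of each comparison did not overlap, and 1 hairpin library held no count. The log2 fold changes in edgeR were 4.74 ± 0.49 with the diet (adjusted p = 0.000291), -2.79 ± 0.38 with Activin A (0.00420) and -2.76 ± 0.62 with the hairpin (0.00909). With DESeq2 the hairpin call was lost, at an adjusted p of 0.0582. Against chow, Mmp13 did not reach the count filter in Activin A or hairpin livers and was not tested there.

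Mmp7 (matrilysin, an epithelial protease that also cuts proteins at the cell surface; ENSMUSG00000018623, chromosome 9, 7692090 to 7699585) split the NASH livers in another way. It stood at 0, 0.286 and 0.302 CPM in Activin A livers, against 6.82, 8.74 and 2.42 CPM in NASH GFP livers. It stood at 0.490, 1.00 and 1.03 CPM in hairpin livers, against 0.305, 1.82 and 1.10 CPM in scramble livers. In chow GFP livers a single read was counted, at 0.0608, 0 and 0 CPM. The NASH GFP livers lay above every other library of the series, and hairpin and scramble livers overlapped. With 379 counts in NASH GFP livers against 1 in chow livers, the ratio was 271, with a 95% counting interval of 48.4 to 10750 that covers counting error only. Activin A gave a log2 fold change of -4.92 ± 0.70 in edgeR (adjusted p = 0.00487) and the hairpin one of -0.34 ± 0.57 (0.708). The diet call had an edgeR adjusted p of 0.000379. Mmp7 overlaps the antisense gene AV064505.

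The scramble and GFP livers on the NASH diet, the controls of the hairpin and of Activin A, were compared with each other as well. Mmp7 averaged 1.07 ± 0.759 CPM in scramble livers and 6.00 ± 3.24 CPM in NASH GFP livers (SD, n = 3 each). Its log2 fold change in scramble over NASH GFP livers was -2.47 ± 0.58 and did not pass in the edgeR test (adjusted p = 0.0909), although no scramble liver reached the lowest NASH GFP liver (25.2% of all genes tested did not overlap). In this comparison none of the 10 members was called, where 0.324% of the 15103 genes tested were called. At an unadjusted p under 0.05 there were 2 members, Mmp7 and Mmp19, and the share of all genes at that threshold was not counted. With limma-voom none was called, and with DESeq2 Mmp7 was called (adjusted p = 0.000364). The other 9 members lay between -0.33 ± 0.28 for Mmp13 and 0.42 ± 0.44 for Timp1, with Mmp19 at 0.29 ± 0.10 (edgeR adjusted p = 0.161). Without NASH GFP library 3, edgeR called Mmp7 as well, at a log2 fold change of -2.84 (adjusted p = 0.00699), and likewise with no filter on low counts (0.00317).

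Mmp2 (gelatinase A, which digests denatured collagen and basement membrane collagen; ENSMUSG00000031740, chromosome 8, 92827291 to 92853420) stood at 6.88, 5.82 and 5.98 CPM in Activin A livers, against 9.10, 13.8 and 8.82 CPM in NASH GFP livers. It stood at 4.83, 3.16 and 6.26 CPM in hairpin livers, against 6.49, 11.9 and 8.47 CPM in scramble livers. Chow GFP livers had 3.59, 2.19 and 3.58 CPM. Every NASH GFP liver lay above every Activin A, hairpin and chow liver. Mmp2 rose on the diet by a log2 fold change of 1.79 ± 0.28 (edgeR adjusted p = 0.00216) and fell under the hairpin, at -0.92 ± 0.27 (0.0318). Under Activin A its log2 fold change was -0.76 ± 0.21 (adjusted p = 0.0641), and it was called with DESeq2 (0.0308), with no filter on low counts (0.0219), with library size alone (0.0434) and without NASH GFP library 3 (-0.87, 0.0263). The hairpin call was lost without hairpin library 1 or 2, or without scramble library 2 or 3, at edgeR adjusted p values of 0.0602, 0.109, 0.133 and 0.0768.

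Of the membrane-anchored proteases, Mmp14 (membrane-type 1 matrix metalloproteinase, a collagenase that also activates the Mmp2 precursor; ENSMUSG00000000957, chromosome 14, 54431612 to 54445364) was the only member that rose under the hairpin. It stood at 67.8, 61.2 and 55.4 CPM in hairpin livers, against 42.6, 50.6 and 49.7 CPM in scramble livers. It stood at 41.0, 37.6 and 39.6 CPM in Activin A livers, against 42.8, 54.0 and 75.7 CPM in NASH GFP livers. Levels in chow GFP livers were 31.2, 32.8 and 36.7 CPM. The NASH GFP libraries were widely spread, with library 3 highest of all 15. The log2 fold change was 0.36 ± 0.09 under the hairpin (edgeR adjusted p = 0.0183), -0.55 ± 0.18 under Activin A (0.121) and 0.81 ± 0.20 on the diet (0.0214). The Activin A fall was called with DESeq2 (0.0433), with no filter on low counts (0.0290), in 1 fit over all 15 libraries (0.0482) and without NASH GFP library 1 (-0.72, 0.0343). The diet call was lost without NASH GFP library 3 or chow library 1 or 2, at adjusted p values of 0.0603, 0.0942 and 0.0684. The hairpin call was lost without hairpin library 1 or 2, or scramble library 1 or 3, at adjusted p values of 0.0582, 0.0532, 0.0588 and 0.0531. It was also lost under scaling by library size alone, at 0.25 (0.124), and in the fit over all 15 libraries, at 0.37 (0.139).

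Mmp15 (membrane-type 2 matrix metalloproteinase; ENSMUSG00000031790, chromosome 8, 95352268 to 95375080) was not called in any comparison. It averaged 56.9 ± 4.70 CPM in Activin A livers and 56.1 ± 10.3 CPM in NASH GFP livers (SD, n = 3 each). It averaged 42.3 ± 2.48 CPM in hairpin livers and 52.3 ± 8.93 CPM in scramble livers, and 58.7 ± 12.6 CPM in chow livers. The group with the lowest mean was the hairpin group, at a log2 fold change of -0.31 ± 0.11 against scramble (edgeR adjusted p = 0.0734). It was called under the hairpin without scramble library 1 (-0.41, adjusted p = 0.0189), with no filter on low counts (0.0264) and with library size alone (0.0389). On the diet it was -0.03 ± 0.19 (0.941) and under Activin A 0.02 ± 0.13 (0.966).

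Mmp19 (a secreted protease that cuts basement membrane proteins; ENSMUSG00000025355, chromosome 10, 128790910 to 128800824) was the only member that fell on the diet. It stood at 50.4, 54.0 and 53.3 CPM in Activin A livers, against 49.6, 44.7 and 41.4 CPM in NASH GFP livers. It stood at 45.2, 43.1 and 48.0 CPM in hairpin livers, against 59.3, 50.9 and 55.6 CPM in scramble livers. Levels in chow GFP livers were 67.2, 74.3 and 71.6 CPM, above all 12 NASH diet livers. It fell on the diet, at a log2 fold change of -0.62 ± 0.14 (edgeR adjusted p = 0.0119), and under the hairpin, at -0.29 ± 0.08 (0.0248), while under Activin A it was 0.21 ± 0.10 (0.263). The diet call was lost without NASH GFP library 2 (adjusted p = 0.0593) and under scaling by library size alone, where the value was -0.36 (0.105) and the median of all genes stood at 0.24. The hairpin call was lost without hairpin library 2 or scramble library 1 or 3, at adjusted p values of 0.0904, 0.0889 and 0.0987, and in 1 fit over all 15 libraries (0.0690). Mmp19 overlaps Tmem198b and Gm47093 on the opposite strand.

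Among the inhibitors, Timp1 (the inducible inhibitor of most secreted metalloproteinases; ENSMUSG00000001131, chromosome X, 20870166 to 20874735) had the largest fall of any member under the hairpin. It stood at 0.184, 0 and 0.109 CPM in hairpin livers, which is 3, 0 and 2 counts, against 1.09, 2.04 and 2.04 CPM in scramble livers, which is 25, 47 and 52 counts. It stood at 0.382, 0.343 and 0.302 CPM in Activin A livers, against 1.43, 1.84 and 0.592 CPM in NASH GFP livers. Chow GFP livers had 0.304, 0 and 0.345 CPM. The hairpin libraries lay at 0.184 CPM or below and the chow libraries at 0.345 CPM or below, and the scramble libraries lay above both. The log2 fold change was -4.12 ± 0.65 under the hairpin (edgeR adjusted p = 0.00152), -1.89 ± 0.53 under Activin A (0.0702) and 2.53 ± 0.78 on the diet (0.0496). The diet call was lost with TMM replaced by relative log expression scaling (adjusted p = 0.0501), with limma-voom (0.0625), and in 5 of 6 fits that left out 1 library. Those 5 left out NASH GFP library 1 or 2 or any chow library, at adjusted p values of 0.146, 0.170, 0.110, 0.0963 and 0.0761. The Activin A fall was called with no filter on low counts (0.0479) and without NASH GFP library 3 (-2.22, 0.0175). Timp1 overlaps Syn1 on the opposite strand.

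Timp2 (which inhibits metalloproteinases and, with Mmp14, helps to activate the Mmp2 precursor; ENSMUSG00000017466, chromosome 11, 118301069 to 118355740) stood at 27.0, 25.6 and 24.5 CPM in Activin A livers, against 35.7, 40.8 and 25.3 CPM in NASH GFP livers. It stood at 22.6, 24.1 and 26.4 CPM in hairpin livers, against 26.3, 34.1 and 31.2 CPM in scramble livers. Chow GFP livers had 14.0, 16.2 and 13.8 CPM, below every NASH diet liver. Timp2 rose on the diet, at a log2 fold change of 1.24 ± 0.20 (edgeR adjusted p = 0.00221). The vectors gave -0.40 ± 0.16 under Activin A (0.195) and -0.33 ± 0.11 under the hairpin (0.0513). Without NASH GFP library 3 the Activin A value was -0.57 (0.0101), and without hairpin library 3 or scramble library 1 the hairpin value was -0.39 (0.0439) or -0.42 (0.0190). The hairpin fall was also called with library size alone (0.0265) and with no filter on low counts (0.0245). Timp2 overlaps Cep295nl on the same strand, so reads of that stretch cannot be told apart.

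Timp3 (the inhibitor that is held in the matrix and also blocks ADAM proteases; ENSMUSG00000020044, chromosome 10, 86300372 to 86349506) stood at 22.4, 21.2 and 18.6 CPM in Activin A livers, against 27.9, 28.6 and 15.6 CPM in NASH GFP livers. It stood at 15.5, 13.0 and 19.1 CPM in hairpin livers, against 18.2, 27.5 and 22.0 CPM in scramble livers. Chow GFP livers had 8.69, 11.3 and 6.48 CPM, again below every NASH diet liver, and the groups of both vector comparisons overlapped. Timp3 rose on the diet, at a log2 fold change of 1.48 ± 0.28 (edgeR adjusted p = 0.00519), and fell under the hairpin, at -0.51 ± 0.17 (0.0478). Under Activin A it was -0.21 ± 0.21 (0.641), and -0.44 (0.0416) without NASH GFP library 3. The hairpin call was lost without hairpin library 1 or 2 or scramble library 2 or 3, at adjusted p values of 0.0933, 0.165, 0.179 and 0.109. It was also lost with limma-voom (0.0543) and in 1 fit over all 15 libraries (0.158). Timp3 overlaps Syn3 on the opposite strand. NASH GFP library 3 had the lowest Mmp7, Timp1, Timp2 and Timp3 of its group and the highest Mmp14.

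The summed length-scaled levels show how the balance of the families shifted. The 3 inhibitors summed to 9.53 ± 0.606 CPM per kb in Activin A livers and 13.1 ± 3.62 in NASH GFP livers, to 8.31 ± 0.808 in hairpin livers and 12.5 ± 2.13 in scramble livers, and to 5.10 ± 0.425 in chow livers (SD, n = 3 each). The 7 proteases summed to 34.7 ± 1.00 CPM per kb in Activin A livers and 45.8 ± 2.73 in NASH GFP livers, to 33.8 ± 0.747 in hairpin livers and 41.3 ± 3.52 in scramble livers, and to 37.6 ± 2.48 in chow livers. The inhibitor sum over the protease sum was 0.275 ± 0.0250 in Activin A livers, 0.284 ± 0.0660 in NASH GFP livers, 0.246 ± 0.0220 in hairpin livers, 0.302 ± 0.0268 in scramble livers and 0.135 ± 0.00409 in chow livers. It lay above 0.21 in every NASH diet library and below 0.14 in every chow library. Activin A and NASH GFP livers overlapped in it, while every hairpin library (0.230, 0.236 and 0.271) lay below every scramble library (0.272, 0.323 and 0.311), by a narrow gap. The ratio was not tested. Mmp14, Mmp15 and Mmp19 made up 92.3% of the protease sum in Activin A livers and 71.7% in NASH GFP livers, 91.7% in hairpin livers and 80.6% in scramble livers, and 97.3% in chow livers. Mmp7 alone made up 12.3% of it in NASH GFP livers but 2.44% in scramble livers. Its share was 0.529% in Activin A livers, 2.33% in hairpin livers and 0.0504% in chow livers. These sums weigh transcripts per length and say nothing of enzyme activity, which in this family depends on cleavage of the precursor.

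**Figure D3:**
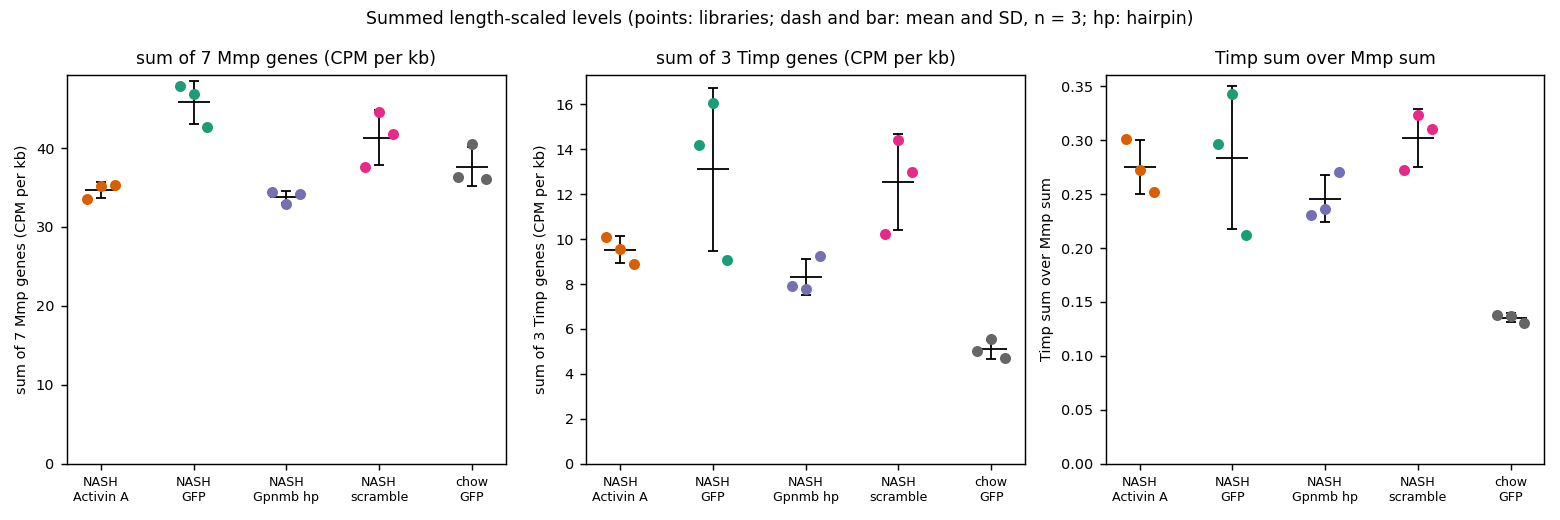
Summed levels (CPM per kb) of the 7 proteases and of the 3 inhibitors, and the inhibitor sum over the protease sum, in the 15 libraries with the mean and SD of 3 libraries per group. The ratio lies at 0.212 or above in the 12 NASH diet libraries and at 0.138 or below in the 3 chow libraries.

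Livers with either vector were also set directly against chow livers, to ask which members were still apart from chow. Mmp7, Mmp13 and Timp1 did not pass the count filter there, which left 7 members. Mmp7 had 46 counts in hairpin livers against 1 in chow livers, a ratio of 37.9 (95% counting interval 6.47 to 1529), and no libraries overlapped. In Activin A livers it had 10 counts, a ratio of 8.44 (1.20 to 366), and overlapped chow livers. For Mmp13, every Activin A library lay above every chow library, while hairpin and chow libraries overlapped. Timp1 overlapped chow livers in both. In Activin A livers 4 of the 7 were called higher than in chow livers and 1 lower, where 18.8% of 14152 genes were called, 1402 higher and 1265 lower, and in hairpin livers likewise 4 were called higher and 1 lower, where 18.1% of 14111 genes were called, 1176 higher and 1384 lower. Mmp12, Timp2 and Timp3 were higher and Mmp19 was lower than in chow livers in both. Timp2 had log2 fold changes of 0.83 ± 0.14 in Activin A livers (edgeR adjusted p = 0.00211) and 0.74 ± 0.15 in hairpin livers (0.00593). Timp3 had 1.25 ± 0.20 in Activin A livers (0.00192) and 0.86 ± 0.23 in hairpin livers (0.0276). Mmp2 was called higher in Activin A livers, at 1.01 ± 0.25 (0.0195), and had 0.61 ± 0.32 in hairpin livers (0.218). Mmp14 was called higher in hairpin livers, at 0.88 ± 0.14 (0.00144), and had 0.25 ± 0.12 in Activin A livers (0.190). Mmp19 had -0.41 ± 0.11 in Activin A livers (0.0290) and -0.63 ± 0.12 in hairpin livers (0.00531). Mmp15 had -0.02 ± 0.17 in Activin A livers (0.939) and -0.46 ± 0.17 in hairpin livers (0.0816), which was called without chow library 3 (-0.62, 0.00835), with no filter on low counts (0.0378) and in 1 fit over all 15 libraries (0.0393). The Mmp2 and Mmp19 calls in Activin A livers were each lost when any 1 Activin A library was left out, at adjusted p values of 0.0536 to 0.0832 for Mmp2 and 0.100 to 0.133 for Mmp19. The Mmp19 call there was also lost with no filter on low counts (0.0621) and with library size alone (0.206), under which Mmp14 was called higher (0.0211). The Timp3 call in hairpin livers was lost without hairpin library 1 or 3 or chow library 1 or 3, at adjusted p values of 0.0796, 0.118, 0.0670 and 0.0580. With no filter on low counts, 5 members were called higher and 2 lower in hairpin than in chow livers. Of 24140 genes tested in that fit, 1499 were called higher and 1750 lower. Both comparisons share the chow livers with the diet comparison.

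The difference between the effects of the vectors, each over its own NASH control, was tested in 1 edgeR fit of the 12 NASH diet libraries. It was called for 3 of the 10 members, where 6.76% of 15545 genes were called, 532 higher and 519 lower. Mmp7 (difference in log2 fold change, Activin A minus hairpin, -4.57 ± 1.03, adjusted p = 0.0151) and Mmp14 (-0.89 ± 0.22, 0.0274) were lower under Activin A than under the hairpin, each against its control. Mmp19 was higher (0.52 ± 0.12, 0.0209). For Mmp12 the difference was 0.24 ± 0.49 (adjusted p = 0.834), for Mmp13 -0.01 ± 1.14 (0.997) and for Timp1 2.23 ± 0.93 (0.180), so none of these was shown to differ or to be alike. Mmp2, Mmp15, Timp2 and Timp3 had differences of 0.17 ± 0.37, 0.34 ± 0.19, -0.06 ± 0.21 and 0.31 ± 0.30, none of them called. The Mmp7 difference was called in every fit that left out 1 library and was lost with limma-voom (adjusted p = 0.0773), and it rests on controls whose Mmp7 levels did not overlap. The Mmp14 and Mmp19 calls were lost together without Activin A library 2 or 3, scramble library 1 or 3, or hairpin library 2, and that of Mmp14 also without Activin A library 1 or hairpin library 1, at adjusted p values of 0.0514 to 0.0699. In 1 fit over all 15 libraries the Mmp19 call was lost (0.0521).

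Mmp12, Mmp13 and Mmp7 belong to a run of 7 metalloproteinase genes in the tables on chromosome 9, which spans 420 kb between the Mmp13 and Mmp7 starts. In order the genes are Mmp13, Mmp12, Mmp3 (stromelysin 1), Mmp10 (stromelysin 2), Mmp8 (neutrophil collagenase), Mmp27 and Mmp7. Mmp27 was called higher on the diet, at a log2 fold change of 2.49 ± 0.67 (edgeR adjusted p = 0.0291), with 90 counts in NASH GFP livers against 11 in chow livers. It was called lower under the hairpin, at -1.17 ± 0.34 (0.0286), with 54 counts in hairpin livers against 164 in scramble livers, and was -0.53 ± 0.43 under Activin A (0.576). Mmp3 had 4 counts in Activin A livers against 28 in NASH GFP livers, and 2 in hairpin livers against 14 in scramble livers, too few to be tested. Mmp8 had 0 counts in hairpin livers against 10 in scramble livers. Mmp10 had 2 counts in total over the 15 libraries, both in NASH GFP library 1. The plot of the cluster shows the low counts of Mmp3, Mmp10 and Mmp8, which lie between Mmp12 and Mmp27.

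**Figure D4:**
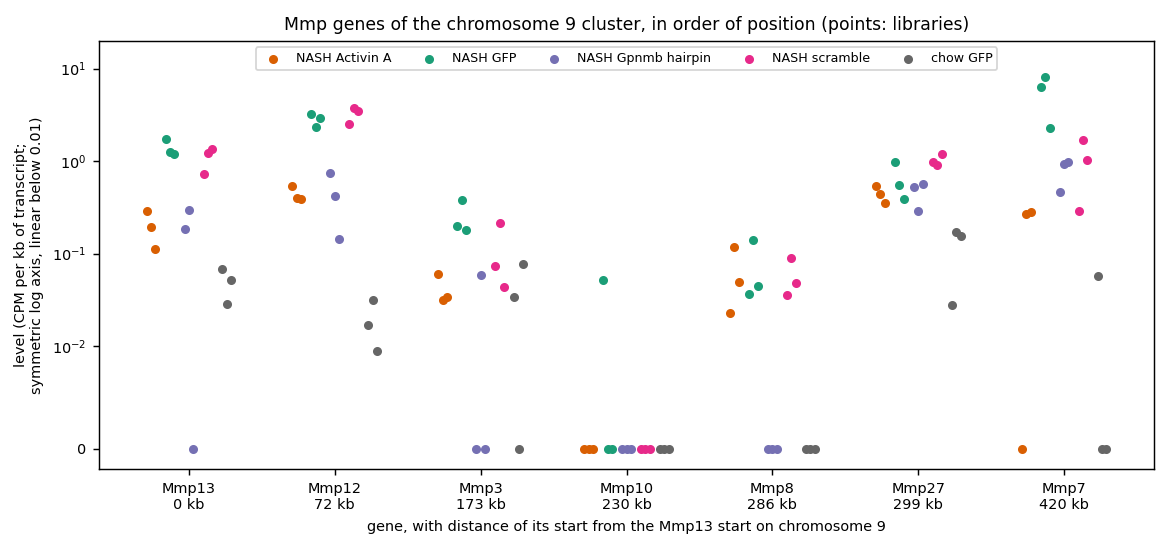
Level per kilobase of gene length (CPM per kb, symmetric log axis that is linear below 0.01) of the 7 metalloproteinase genes of the chromosome 9 cluster in the 15 libraries, in order of position. Mmp13, Mmp12 and Mmp7 are high in NASH GFP livers, while Mmp10 is at 0 in all libraries but 1.

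The tables held 14 further family members, 13 Mmp genes and Timp4. Besides Mmp27, those with enough counts were Mmp9 (gelatinase B), Mmp11 (stromelysin 3), Mmp17, Mmp23 and, in the vector comparisons, Mmp28, and none of them was called in the 3 comparisons. At an unadjusted p under 0.05, Mmp27 included, there were 4 of 5 on the diet, 2 of 6 under Activin A and 2 of 6 under the hairpin. Of all genes tested, 17.0%, 5.52% and 24.3% were called even after adjustment, and the shares at an unadjusted p are at least as large. In edgeR, Mmp9 had log2 fold changes of 2.23 ± 0.71 with the diet (adjusted p = 0.0558), -1.49 ± 0.55 with Activin A (0.163) and -1.08 ± 0.55 with the hairpin (0.183). Mmp11 had 1.50 ± 0.52 on the diet (0.0779), -1.63 ± 0.49 under Activin A (0.0905) and 0.16 ± 0.35 under the hairpin (0.780). In a list of other inhibitors and regulators, 1 of 6 tested was lower on the diet, Pzp (an alpha-macroglobulin that traps proteases), at -0.62 ± 0.19 (0.0452). None of 6 was called under Activin A, where 1 had an unadjusted p under 0.05. Under the hairpin, Pzp was higher, at 0.56 ± 0.09 (0.00143), and Pcolce, which enhances procollagen processing, was lower, at -0.58 ± 0.12 (0.00626).

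Related proteases and their regulators were counted in lists. Beside these and all later lists stand the shares of all genes called in either direction, 17.0% on the diet, 5.52% under Activin A and 24.3% under the hairpin. The ADAMTS and ADAM counts under the hairpin did not exceed that share, and no list was tested as a set. Of 12 ADAMTS proteases tested on the diet (which cut proteoglycans and procollagens), 7 rose and none fell, among them Adamts1 at 1.37 ± 0.18 (edgeR adjusted p = 0.000835). Of 12 under Activin A 2 fell, Adamts4 at -2.80 ± 0.51 (0.0136) and Adamts12 at -1.81 ± 0.42 (0.0357), and of 13 under the hairpin 3 fell, among them Adamts2, a procollagen N-proteinase, at -0.98 ± 0.16 (0.00209). Of 11 ADAM proteases, 2 rose on the diet, 1 fell under Activin A and 2 fell under the hairpin. Adam8, an ADAM of myeloid cells, was in all 3 counts, at 2.84 ± 0.70 (0.0193), -1.63 ± 0.40 (0.0461) and -3.15 ± 0.36 (0.000262). Of 13 cathepsins and cystatins, 3 rose on the diet and 4 fell under Activin A, and of 14 under the hairpin 7 fell and 1, Ctsc, rose. Ctss, an elastin-cutting cathepsin of macrophages, moved by 2.00 ± 0.23 (0.000490), -1.32 ± 0.11 (0.000539) and -1.06 ± 0.09 (3.81e-05).

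The plasminogen system, whose protease plasmin activates several metalloproteinase precursors, was listed with the furin-type and membrane serine proteases. Of 15 genes tested, 5 rose and 2 fell on the diet. Plg, the plasminogen gene, was among those that fell, at -0.86 ± 0.19 on the log2 scale (edgeR adjusted p = 0.0115). Under Activin A 3 of 15 fell, the activators Plat, at -2.77 ± 0.43 (0.00721), and Plau, at -2.06 ± 0.37 (0.0119), and the inhibitor Serpine2, at -2.04 ± 0.32 (0.00743). Under the hairpin 2 rose and 3 fell, and Plau was among those that fell, at -1.15 ± 0.30 (0.0196).

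Matrix proteins that these enzymes cut were counted as well. Of 18 substrates tested on the diet, 15 rose and none fell, of 19 under Activin A 9 fell and none rose, and of 19 under the hairpin 15 fell and 1 rose. The median log2 fold changes of the list were 1.24, -0.66 and -0.78, where the medians over all genes were -0.01, 0.00 and 0.00. Col1a1, the main fibrillar collagen chain, had 2.65 ± 0.27 (edgeR adjusted p = 0.000266), -1.56 ± 0.24 (0.00678) and -1.74 ± 0.23 (0.000650). The gene that rose under the hairpin was Fn1 (fibronectin), at 0.50 ± 0.08 (0.00148), named after its value was seen. AP-1 and ETS factors and their relatives, which bind metalloproteinase promoters, were a further list. Of these, 9 of 16 tested rose on the diet, 5 of 18 fell under Activin A and 11 of 17 fell under the hairpin. None was called in the other direction. Between the NASH controls, 2 of 18 in this list were lower in scramble than in NASH GFP livers. Of all 15103 genes tested there, 0.324% were called. At an unadjusted p under 0.05 there were 10 of the 18, and the share of all genes at that threshold was not counted. Whether these factors act on the members was not tested. Atf3 had 3.71 ± 0.39 (0.000328), -1.61 ± 0.20 (0.00226) and -2.60 ± 0.34 (0.000575). Spi1, the ETS factor of myeloid cells, had 2.07 ± 0.20 (0.000233), -0.93 ± 0.15 (0.00770) and -1.49 ± 0.19 (0.000428). Fos fell under the hairpin, at -1.17 ± 0.18 (0.00142), but was not called on the diet, at 0.30 ± 0.25 (0.460).

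Markers of cell types moved beside the members. Of all genes tested, 17.0% were called on the diet, 5.52% under Activin A and 24.3% under the hairpin. All 13 macrophage markers rose on the diet, 11 of 13 fell under Activin A and 12 of 13 fell under the hairpin. Their summed level was 272 to 317 CPM in Activin A livers, 659 to 779 in NASH GFP livers, 272 to 362 in hairpin livers, 569 to 701 in scramble livers and 210 to 239 in chow livers, with no marker at 0. Of 11 markers of lipid-associated macrophages, the cells that express Gpnmb and Trem2, 9 rose on the diet, 10 fell under Activin A, and 7 fell and 1 rose under the hairpin. Their sums were 396 to 438 CPM in Activin A livers, 697 to 934 in NASH GFP livers, 470 to 547 in hairpin livers, 619 to 857 in scramble livers and 162 to 195 in chow livers. Gpnmb itself, the target of the hairpin, is 1 of these markers and is part of the sums. It was counted among those that fell under the hairpin, at -3.95 ± 0.26 (edgeR adjusted p = 1.15e-05). The mean Mmp12 and Mmp13 levels followed the same order of groups for the NASH controls over the vectors over chow. For Mmp13, hairpin and chow livers overlapped, with 1 hairpin library at 0 CPM. The part of macrophage number or content in these results was not tested.

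Myofibroblast markers numbered 10, of which 9 rose on the diet, 4 fell under Activin A and 9 fell under the hairpin. Their sums were 134 to 138 CPM in Activin A livers, 208 to 385 in NASH GFP livers, 97.4 to 160 in hairpin livers, 240 to 375 in scramble livers and 76.5 to 81.1 in chow livers, none at 0. NASH GFP library 3, low in Timp1, Timp2 and Timp3, had the lowest of these sums in its group, 208 CPM. Stellate cell markers numbered 12, of which 6 rose on the diet, 1 fell under Activin A and 6 fell under the hairpin. Their sums overlapped between Activin A livers (674 to 713 CPM) and NASH GFP livers (603 to 724). They were 606 to 630 CPM in hairpin livers, 697 to 707 in scramble livers and 354 to 469 in chow livers. The median log2 fold change of these markers was 0.71 on the diet, 0.02 under Activin A and -0.29 under the hairpin. Both lists share genes with the matrix substrates counted above, so their counts are not separate results. Col1a1, Col1a2 and Col3a1 are also in the myofibroblast list, and Dcn is also in the stellate cell list. The part of myofibroblasts and stellate cells in the Mmp2 and Timp results was not tested.

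Cholangiocyte markers numbered 10, and 4 of 8 tested rose on the diet, 1 of 8 fell under Activin A and none of 9 was called under the hairpin, where 1 had an unadjusted p under 0.05. Their sums were 37.6 to 41.0 CPM in Activin A livers, 41.3 to 59.5 in NASH GFP livers, 43.3 to 53.6 in hairpin livers, 36.6 to 59.1 in scramble livers and 32.1 to 41.0 in chow livers. The median log2 fold change of the tested markers was 1.26 on the diet, -0.66 under Activin A and 0.02 under the hairpin. Mmp7 stood at 2.42 to 8.74 CPM in NASH GFP livers and at 0.305 to 1.82 CPM in scramble livers. Prom1, a ductal progenitor marker of this list, had log2 fold changes of 2.11 ± 0.41 with the diet (adjusted p = 0.00670 in edgeR) and -2.20 ± 0.36 with Activin A (0.00817). The part of bile duct cells in the Mmp7 result was not tested.

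**Figure D5:**
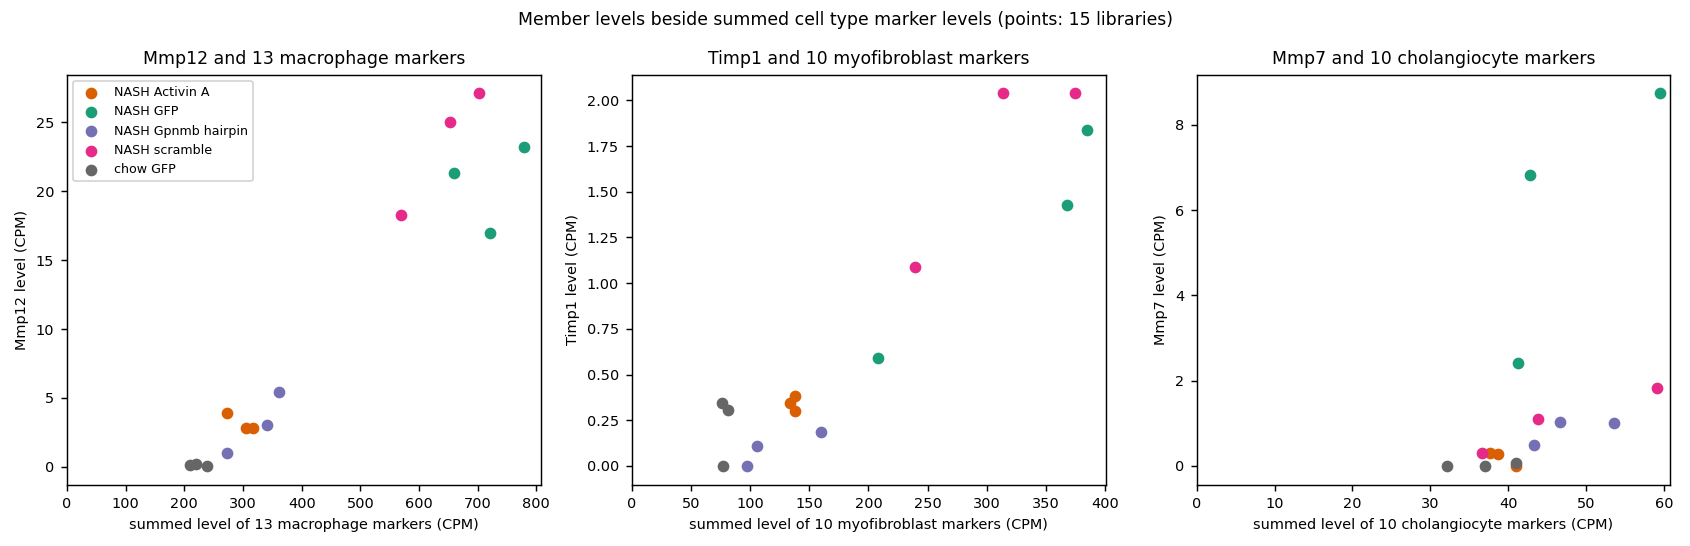
Level of Mmp12, Timp1 and Mmp7 (CPM) against the summed level (CPM) of 13 macrophage, 10 myofibroblast and 10 cholangiocyte markers in the 15 libraries, coloured by group. Mmp12 and its markers are both high in the 6 NASH control libraries. Mmp7 lies at 2.42 CPM or above in the NASH GFP libraries and at 1.82 CPM or below in all others.

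Other markers were counted in the same way, beside the same shares of all genes called (17.0%, 5.52% and 24.3%). Of 7 Kupffer cell markers 4 rose on the diet, 1 fell under Activin A and 3 fell under the hairpin. Of 10 sinusoidal endothelial markers 2 rose on the diet, 1 rose and 1 fell under Activin A, and 4 fell under the hairpin. Of 10 hepatocyte markers 4 fell on the diet, 1 rose under Activin A and 5 rose under the hairpin, so the livers showed the markers of their labelled tissue in all groups, with hepatocyte sums of 61688 to 126766 CPM. Neutrophil markers were near 0, at sums of 1.65 to 9.50 CPM with Mpo at 0 in 13 of the 15 libraries, and 3 of 3 tested rose on the diet, none of 3 was called under Activin A, where 2 had an unadjusted p under 0.05, and 1 of 2 fell under the hairpin. Of the T and NK cell markers 2 of 5 rose on the diet, 1 of 5 fell under Activin A and none of 4 was called under the hairpin, with none at an unadjusted p under 0.05. Of 6 smooth muscle and mesothelial markers none was called on the diet or under Activin A, where 0 and 1 had an unadjusted p under 0.05, and 1 fell under the hairpin.

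Genes among those whose log2 CPM followed each member most closely over the 15 libraries are given as a description, since the libraries share groups, depth and controls. Mmp12 was followed by AB124611 (Pearson r = 0.975) and Sirpa (0.972), and Mmp13 by Fcgr1 (0.966) and H2-Q6 (0.958). Mmp2 was followed by Lum (0.956) and Smox (0.947), Timp1 by Plac8 (0.945) and Loxl1 (0.914), Timp2 by Bgn (0.975) and Scd2 (0.974), and Timp3 by Timp2 (0.955) and Nid1 (0.954). Mmp7 was followed by Pygb (0.929) and Rhoc (0.927), Mmp14 by Grpel2 (0.941) and Ldha (0.912), Mmp15 by Hs6st1 (0.825), and Mmp19 by Adra1b (0.954) and Ido2 (0.923). Fcgr1 is a macrophage marker of the list above, and Lum and Loxl1 are markers of the myofibroblast list.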

How the data were processed

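Counts per gene and library were deposited by the authors in 3 tables, 1 per comparison, as whole numbers without normalization, per the file headers. The authors' log2 fold changes and adjusted p-values in those tables, per the file headers, were used only for comparison. Gene lengths (other values the authors deposited) scaled levels to CPM per kb. The submitters' processing notes name GRCm38 and mm10. The aligner, the counter and the strand setting are not given in sources used here. Coordinates of the members matched GENCODE M21, and the overlaps with other genes were taken from that annotation.

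The members and the gene lists were chosen with earlier results of these data known. Tables were joined on the gene identifier. None of 23148 genes in both differed in the NASH GFP counts, and 42 other columns per sample or group were not used. Genes were filtered with filterByExpr (minimum count 10), scaled by TMM and tested with edgeR 4.0.16 in R 4.3.3, two-sided, with no covariate and only the compared groups in each fit. A call needed p, adjusted after Benjamini and Hochberg over every gene tested, to be under 0.05. Shares of all genes at an unadjusted p under 0.05 were not counted. The standard error is the log2 fold change divided by the square root of F. The scripts were tested on simulated data. Depth limits precision most for Timp1 (238 counts over 15 libraries), Mmp13 (499) and Mmp7 (513). Same-numbered libraries did not deviate together, so no block was used.

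From each list at most 3 genes with the smallest p per comparison are named, besides all Mmp and Timp genes. Like genes were the 2 with the highest Pearson r of log2 CPM (prior count 2) with a member, at a mean log2 CPM of at least 1. Some genes that these rules select are not reported here. In the authors' deposited table, Timp1 had a log2 fold change of 2.56 on the diet (adjusted p 0.0285), -1.91 under Activin A (0.0764) and -4.20 under the hairpin (9.25e-06). Alternatives were other scaling, no filter, DESeq2 1.42.0, limma-voom (limma 3.58.1), a fit over all 15 libraries, a replicate block and leaving out each library.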

Additional observations from a re-analysis of the deposited data

How the results depend on the processing

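Of 892 member log2 fold changes recomputed under alternatives, 802 kept their side of the threshold, 63 lost the call and 27 gained one. The sign changed in 34, in 12 combinations of member and comparison, none of them called with either sign, and the cause was not tested. With library size alone, Mmp15 stood at 0.22 on the diet, -0.052 under Activin A and 0.17 for Activin A against chow, and the difference of effects for Mmp13 at 0.012. That difference was 0.89 with limma-voom and 0.055 with the replicate block. Leaving out 1 library, log2 fold changes of Mmp15 ran from -0.19 to 0.11 on the diet, -0.054 to 0.18 under Activin A, -0.19 to 0.14 for Activin A against chow and -0.24 to 0.061 for scramble against GFP. Mmp7 ran from -0.78 to 0.25 under the hairpin (0.25 without scramble library 2). Between scramble and GFP livers the ranges were -0.49 to 0.0050 for Mmp2, -0.32 to 0.0062 for Timp2 and -0.32 to 0.058 for Timp3. For the difference of effects they were -0.11 to 0.42 for Mmp2, -0.19 to 0.85 for Mmp12, -0.61 to 0.84 for Mmp13 and -0.23 to 0.086 for Timp2. The number of members called moved by over 1.5 times in these cases, whose cause was not tested unless the setting itself shows it. Under Activin A it was 3, and 6 with no filter on low counts and 5 with DESeq2. Under the hairpin it was 7, and 4 in 1 fit over all 15 libraries. Between scramble and NASH GFP livers it was 0, and 1 with no filter or with DESeq2. Leaving out 1 library gave 7 to 8 members on the diet (9 with all libraries), 3 to 7 under Activin A (7 without NASH GFP library 3), 3 to 8 under the hairpin (4 without hairpin library 1, 3 without hairpin library 2 or scramble library 3), 3 to 5 for Activin A against chow livers, 4 to 6 for the hairpin against chow livers, 0 to 1 for scramble against GFP (1 without NASH GFP library 3) and 1 to 3 for the difference of effects. Scaling by library size alone moved the all-gene median log2 fold change to 0.24 on the diet, -0.11 under the hairpin, 0.20 for Activin A against chow and 0.21 for the hairpin against chow, and changed the calls over all genes to 2671 higher and 405 lower on the diet (1607 and 838 with TMM), 1006 and 2464 under the hairpin (1813 and 1788), 2478 and 776 for Activin A against chow (1402 and 1265) and 2321 and 800 for the hairpin against chow (1176 and 1384). Replicate numbers did not pair the samples: deviations of same-numbered libraries correlated at -0.13 to 0.09. With a replicate block, 7 members were called on the diet, 3 under Activin A, 6 under the hairpin, 5 and 5 for Activin A and the hairpin against chow, 0 between the controls and 3 for the difference of effects, and on the diet 1597 genes were called in place of 2445. The block lost Timp1 (adjusted p 0.133) and Mmp19 (0.0537) on the diet and Mmp2 (0.0590) and Timp3 (0.0702) under the hairpin, where it gained Timp2 (0.0484). The counts of Timp1, Mmp13 and Mmp7 limit what depth can show.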
